A study of Homo sapiens with 4 samples.

Results

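Interferon-stimulated genes were followed in the inflammatory breast cancer line SUM149 before and during treatment with Ricolinostat (ACY1215), an inhibitor of the cytoplasmic deacetylase HDAC6. A list of 43 such genes was taken by symbol: each probe that the deposited normalized table assigns to a listed gene was a member probe. No measured value entered the choice of member probes, but the list was chosen with earlier results of these data known. This gave 59 of the 58201 probes on the array and 43 of its 34755 genes, with 1 probe for 28 genes and several for 15. A gene is represented below by its probe with the highest mean Cy3 signal over these arrays, so measured values did enter that choice.

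RNA of SUM149 cells was hybridised to 4 two-colour Agilent arrays, with the sample in Cy5 and a common reference in Cy3. The groups were untreated cells and cells given 2.5 uM of ACY1215 for 3, 6 or 12 hours, with 1 array each and no genetic change or second agent in any of them. Without a second array of any group, the values below carry no test between time points, and 4 arrays set the limit of their precision. Vehicle-treated cells were not analysed here, so treatment and the time spent in culture cannot be told apart.

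Interferons are secreted proteins that bind receptors at the cell surface. Type I and type III receptors act through the kinases JAK1 and TYK2 on STAT2, which joins IRF9 in a complex that binds the interferon-stimulated response element (ISRE) in promoters. The genes switched on in this way encode RNA sensors, enzymes that degrade or modify viral RNA, membrane proteins that block virus entry or release, and the ubiquitin-like protein ISG15. Some tumour cell lines keep part of this programme active without added interferon.

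Changes are differences in log2(Cy5/Cy3) from the untreated array, after background correction and normalization. A gene was measured at a time point when the software's flag for a signal well above background was set for its probe in Cy5 and in Cy3, on the untreated array and on the array of that time, and was counted when its log2 change was 1 (2-fold) or more in size. The only error that these data give is that between spots of a probe printed several times on each array. Over 300 such probes the log2 changes of 3, 6 and 12 hours had SDs of 0.157, 0.12 and 0.116, and over the 20 of them with a Cy5 signal under 100 units SDs of 0.215, 0.138 and 0.167. It leaves out the spread between cultures, extractions and labellings.

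Areas of damage covered 3.35% of the spots of the untreated array, 4.68% of the 3-hour array, 0.199% of the 6-hour array and 0.00164% of the 12-hour array. The representing spots of STAT2 and IFITM2 lay in such an area at 3 hours and that of ISG20 in untreated cells, as did a further OAS2 probe and a further XAF1 probe at 3 hours. The median spot had a Cy5 signal of 36.0 to 40.0 units over a local background of 24.0 units. All 5 epithelial markers (EPCAM, CDH1, KRT8, KRT18 and KRT19) were well above background on each array. Of the basal markers KRT5, KRT17 and EGFR were, TP63 was not on any array, and the representing KRT14 spot of the untreated array had been set aside as an outlier. A further KRT14 probe was well above background on each array, at 989, 705, 464 and 563 units. Among 6 leukocyte markers on the array 5 were well above background, with summed Cy5 signals of 1060, 1440, 1170 and 1190 units at 0, 3, 6 and 12 hours, mostly from CD14, and MS4A1 was not. Of 3 plasmacytoid dendritic cell markers LILRA4 was well above background on each array at 16.0 to 31.0 units, IL3RA was so at 3 and 12 hours only (4.5 and 9.0 units), and CLEC4C lay at 1.0 unit or less. In untreated cells 4 of 5 fibroblast markers and 3 of 3 endothelial markers were also well above background, among them COL1A1 at 326 units (log2 changes of 0.36, 0.44 and 0.67) and CDH5 at 214 units (-0.10, -0.19 and -0.23). The part of other cells in the results was not tested.

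Most of the interferon-stimulated genes were seen in untreated cells. The Cy5 signal of 39 of 43 was well above background there, against 63.5% of all genes on the array (exact binomial 95% interval from 63.0% to 64.0%, for counting error alone). Of the 43 genes, 37 were well above background in Cy5 on all 4 arrays. EPSTI1, RSAD2 and TRIM22 were so on no array, at Cy5 signals between -3.5 and 2.0 units. RSAD2 encodes viperin, a radical SAM enzyme that makes an antiviral nucleotide, and TRIM22 an antiviral ubiquitin ligase.

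CXCL10 and CXCL11, chemokines that draw activated T cells, and OAS1, a synthetase of the RNase L activator, crossed the detection limit on some arrays only. CXCL10 had Cy5 signals of 7.0, 4.0, 7.0 and 2.0 units at 0, 3, 6 and 12 hours. CXCL11 had 1.0, 6.0, 2.0 and 7.0 units, and OAS1 had 6.0, 3.0, 3.0 and 2.0 units. CXCL10 was measured at 6 hours, with a log2 change of 0.20, and CXCL11 was seen on neither array of that comparison. The other changes have only a bound, and the highest was at least 1.13-fold for CXCL11 at 12 hours.

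The 39 genes seen in untreated cells had Cy5 signals between 6.0 and 7280 units above local background, with a median of 136 units, and 18 of them lay under 100 units. The brightest spots were those of IFITM3, IFITM2, BST2, ISG15, IFITM1, IFI27, ISG20 and IRF7, each above 1000 units. Signals of different probes do not rank genes by RNA amount, because each probe hybridises with its own efficiency. They do show which changes rest on a bright spot and which on one near the detection limit.

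**Figure D1:**
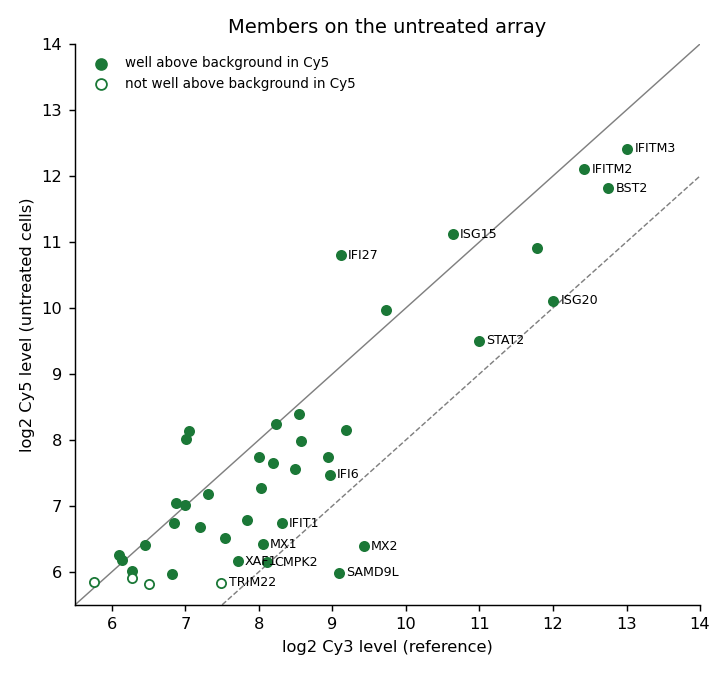
Normalized log2 Cy5 level of each of the 43 genes in untreated cells (vertical axis) against its log2 Cy3 level in the reference on the same array (horizontal axis), with filled points for a Cy5 signal well above background. The solid line marks equal levels and the dashed line a 4-fold excess of the reference. MX2 and SAMD9L lie beyond the dashed line, with log2 ratios of -3.04 and -3.10.

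The sample labels describe the Cy3 reference as a pool of the SUM149 samples, and several interferon-stimulated genes went against that label. For MX2, which encodes a dynamin-like antiviral GTPase, the Cy5 signals of the 4 samples were 33.0, 36.0, 22.5 and 25.5 units and the Cy3 signals 600, 622, 655 and 696 units. For SAMD9L, an antiviral and growth-restraining protein, Cy5 gave 9.5, 13, 9.0 and 14.5 units and Cy3 467, 422, 413 and 410 units. The Cy3 level exceeded the Cy5 level at least 2-fold on all 4 arrays for 6 of 37 genes (CMPK2, ISG20, MX1, MX2, SAMD9L and XAF1) and 4-fold for 2 (MX2 and SAMD9L), against 7.36% and 2.44% of the 19891 genes measured on all arrays. These thresholds were chosen after the values were seen, and the cause was not tested. A reference common to all arrays cancels from the changes given here, as long as its own signal is stable. The Cy3 level of the genes changed 2-fold or more in 2 of 37 at 3 hours, 0 of 38 at 6 hours and 1 of 37 at 12 hours.

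Few of the genes changed 2-fold. At 3 hours 1 of 37 measured genes was 2-fold higher (STAT2), against 1.69% of all genes measured, and that value rested on a damaged spot. At 6 hours it was 1 of 38 (STAT2, against 2.81%), and at 12 hours 3 of 37 (IFI6, STAT2 and UBE2L6, against 2.34%). With median centring none of these 3 reached 2-fold (0.83, 0.91 and 0.95), and with a normexp offset of 1 the count was 6, against 1.28% and 4.48% of all genes. By loess with the offset of 50, none was 2-fold lower at any time point, against 0.366%, 0.939% and 1.12% of all genes. At 1.5-fold, 2, 5 and 7 genes were higher (6.87%, 9.4% and 8.09% of all genes) and again none was lower (1.96%, 4.42% and 5.13%). The 2 at 3 hours were STAT2 and IFITM2, both on damaged spots, and in the Cy5 channel alone they gave -0.27 and -1.23. The 7 at 12 hours were HERC5, IFI6, IFIH1, IFIT1, OASL, STAT2 and UBE2L6.

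Around these few genes the list as a whole stayed near the middle of the array. After 3, 6 and 12 hours its median log2 changes were 0.09, 0.12 and 0.05, where that of all genes measured was 0.0075, 0.016 and 0.014. The log2 change was above 0 in 25 of 37, 25 of 38 and 24 of 37 genes, against 51.4%, 52.8% and 52.5% of all genes. Beyond the SD between repeated spots, 15 were higher and 4 lower at 3 hours, 18 and 10 at 6 hours, and 17 and 9 at 12 hours. The same applied to 28.0% and 21.2% of all genes at 3 hours, 35.2% and 29.0% at 6 hours, and 34.9% and 29.8% at 12 hours. When arrays were centred on their median in place of loess, 14 of 37 were above 0 at 12 hours against 29.1% of all genes, whose own median then moved to -0.16. The number above the median of all genes was 22 with loess and 23 with median centring.

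**Figure D2:**
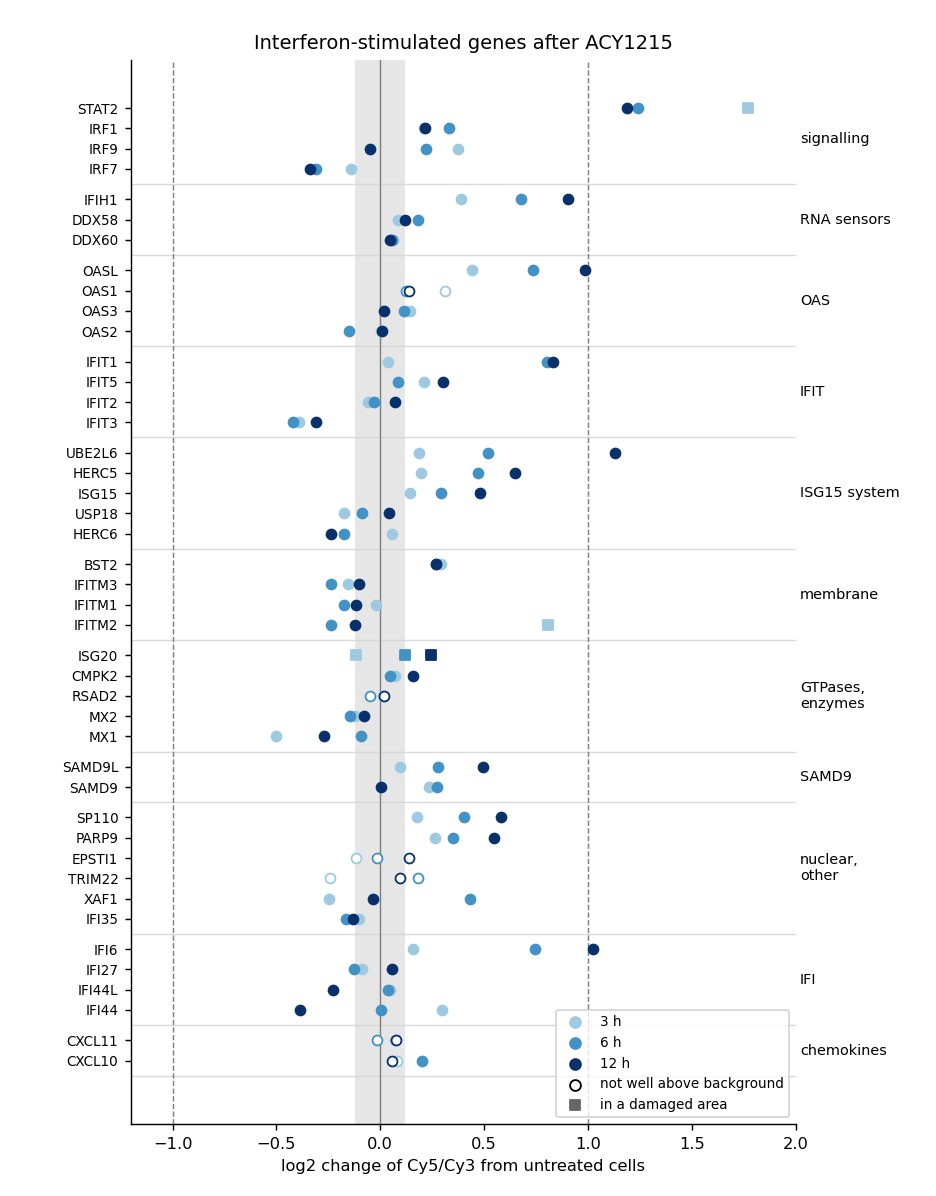
Log2 change of Cy5/Cy3 from untreated cells (horizontal axis) for each of the 43 genes, grouped by role, at 3, 6 and 12 hours (light to dark). Open points were not measured, squares rest on a spot in a damaged area, the grey band spans 1 SD between repeated spots at 12 hours (0.116) on either side of 0, and dashed lines mark 2-fold. At 12 hours the measured genes span -0.39 (IFI44) to 1.19 (STAT2).

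Among the signal transducers and transcription factors, STAT2 was higher and IRF7 lower. STAT2, the transactivating subunit of the ISRE-binding complex, had Cy5 signals of 823, 737, 1820 and 1730 units at 0, 3, 6 and 12 hours, and Cy3 signals of 1730, 412, 1750 and 1970 units. The samples of 6 and 12 hours were thus the bright ones, while the reference was dim only on the damaged 3-hour spot. The log2 change was 1.24 at 6 hours and 1.19 (2.28-fold) at 12 hours. At 3 hours it was 1.77, but the Cy3 level of the spot had itself changed by -1.93, and the Cy5 channel alone gave -0.27. STAT2 is represented by 1 probe, so no second spot bears on these values.

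IRF7, which drives transcription of the interferon alpha genes, had log2 ratios of 0.23, 0.09, -0.08 and -0.10 at 0, 3, 6 and 12 hours and was the only gene of the list that was lower at each step. Its log2 change at 12 hours was -0.34, at Cy5 signals of 1130 units in untreated cells and 655 units at 12 hours. IRF9, the DNA-binding partner of the STATs, had log2 changes of 0.37, 0.22 and -0.05. IRF1, a factor induced by type II interferon, had 0.21, 0.33 and 0.21. STAT2 and IRF9, which act in the same complex, thus differed: STAT2 exceeded 2-fold at 6 and 12 hours and IRF9 at no time point.

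Of the RNA sensors, IFIH1 was higher at each time point. It encodes MDA5, which detects long double-stranded RNA, and its Cy5 signals were 313, 546, 450 and 486 units with log2 ratios of -0.16, 0.23, 0.52 and 0.75. The log2 change was 0.39, 0.68 and 0.91 (1.87-fold at 12 hours), with the untreated sample the lowest. DDX58, which encodes RIG-I, the sensor of short RNA with a 5′ triphosphate, had log2 changes of 0.09, 0.18 and 0.12. DDX60, a helicase linked to RIG-I signalling, stayed between 0.05 and 0.06. The difference between the sensors was thus that between 1.87-fold for IFIH1 and 1.09-fold for DDX58 at 12 hours.

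In the oligoadenylate synthetase family the gene without synthetase activity stood apart. OASL, which binds RIG-I instead of making oligoadenylates, had Cy5 signals of 240, 357, 381 and 402 units and Cy3 signals of 68.0, 60.0, 63.0 and 56.5 units. Its log2 change was 0.44, 0.74 and 0.98 (1.98-fold at 12 hours). OAS3, the member that responds to long double-stranded RNA, had log2 changes of 0.14, 0.11 and 0.02. OAS2 had 0.00, -0.15 and 0.01, but its representing spot was bright in both channels at 12 hours (342 and 362 units, where the other arrays gave 17.5 to 29.0 units). The Cy3 level of that spot had changed by 2.31 and its Cy5 channel alone by 2.43, and 2 other OAS2 probes gave log2 changes of -0.11 and -0.02.

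The IFIT family, proteins that hold back translation of foreign RNA, went in both directions. IFIT1, which binds RNA with an unmethylated cap, had Cy5 signals of 55.0, 73.0, 95 and 97.0 units and log2 ratios of -1.57, -1.53, -0.77 and -0.74. Its log2 change was 0.04, 0.80 and 0.83, so the samples of 6 and 12 hours lay together above the other two. IFIT3, the partner that stabilises IFIT1, had 49.0, 28, 17.0 and 23.0 units and log2 changes of -0.39, -0.42 and -0.31, lower in all 3 treated samples. IFIT2 lay between -0.06 and 0.07, and IFIT5 had 0.21, 0.09 and 0.30. The IFIT1 and IFIT3 spots were below 100 units, where the SD between repeated spots was up to 0.215.

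With loess, the ISG15 system held 3 of the genes that were higher at each step. ISG15 is joined to proteins by the activating enzyme UBA7, the conjugating enzyme UBE2L6 and the ligase HERC5, and is removed by USP18. UBE2L6 had Cy5 signals of 178, 257, 228 and 400 units, Cy3 signals of 403, 428, 376 and 427 units, and log2 changes of 0.18, 0.52 and 1.13 (2.19-fold at 12 hours). HERC5 had 58.0, 71.0, 73.0 and 81.5 units and log2 changes of 0.20, 0.47 and 0.65. ISG15 itself had 2710, 4180, 3240 and 3530 units and log2 changes of 0.14, 0.29 and 0.48. With median centring ISG15 gave 0.29, 0.12 and 0.16, and with Cy5 alone 0.51, 0.47 and 0.71, so its steps depended on the scaling. USP18, which also dampens the type I receptor, had -0.18, -0.09 and 0.04, and HERC6, a relative of HERC5, 0.06, -0.17 and -0.24 at Cy5 signals of 4.0 to 19.0 units.

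The membrane restriction factors were bright and changed little. BST2 (tetherin), which holds budding viruses at the cell surface, had Cy5 signals of 4680, 5050, 4130 and 3880 units and log2 changes of 0.29, 0.27 and 0.27. With median centring the value at 12 hours was -0.14 and with Cy5 alone 0.07, so its direction depended on the scaling. IFITM1 and IFITM3, which block fusion of enveloped viruses, had log2 changes of -0.12 and -0.10 at 12 hours. A second IFITM1 probe, also measured, gave 0.06 then. IFITM2 had 0.81, -0.24 and -0.12. Its 3-hour spot was damaged, with Cy5 and Cy3 signals of 2590 and 1150 units where the other arrays gave 4240 to 5720 and 4580 to 5170 units. The Cy5 channel alone gave -1.23 at 3 hours, so no direction is read from that array.

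Among the antiviral GTPases and the enzymes that act on nucleotides or nucleic acids, the log2 changes were small, and the one farthest from 0 was that of MX1 at 3 hours. MX1, a dynamin-like GTPase that traps viral nucleocapsids, had Cy5 signals of 32.5, 27.5, 31.0 and 21.0 units and log2 changes of -0.50, -0.09 and -0.27. At 3 hours the Cy3 level of the MX1 spot had itself changed by 0.35, and the Cy5 channel alone gave -0.13. MX2 had -0.12, -0.15 and -0.08. ISG20, an exonuclease that degrades single-stranded RNA, had 1320, 1640, 1360 and 1340 units and log2 changes of -0.12, 0.12 and 0.25, all against a damaged untreated spot. CMPK2, a mitochondrial nucleotide kinase, stayed between 0.05 and 0.16. RSAD2 was not measured.

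The SAMD9 pair, neighbouring paralogs that restrict poxviruses, is read here from dim spots. SAMD9L had log2 changes of 0.10, 0.28 and 0.49, at the Cy5 signals near the detection limit given above, and the Cy5 channel alone gave 0.15 at 12 hours. SAMD9 had 0.24, 0.27 and 0.00, from Cy5 signals of 15.0, 39.0, 31.0 and 20.0 units. A second SAMD9L probe, not well above background, gave 0.15. For comparison, over 6573 further probes of genes with several, the SD of the difference from the representing probe was 0.38 at 12 hours.

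Among nuclear and other regulators, SP110 was higher at each time point and the probes of PARP9 differed. SP110, a nuclear body protein that recognises modified chromatin, had Cy5 signals of 262, 334, 326 and 344 units and log2 changes of 0.18, 0.40 and 0.58. PARP9, which pairs with the ubiquitin ligase DTX3L, had 77.0, 114, 90.5 and 98.0 units and log2 changes of 0.26, 0.35 and 0.55. Its second probe, also measured, gave 0.31, -0.15 and 0.14, so that the 2 probes differed in direction at 6 hours and the second was not higher at each step. IFI35 had -0.10, -0.16 and -0.13. XAF1, a proapoptotic protein, had -0.25, 0.43 and -0.03, from Cy5 signals of 17.0, 12.5, 48.0 and 6.0 units.

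The interferon alpha-inducible proteins went in both directions. IFI6, a small membrane protein that inhibits apoptosis, had Cy5 signals of 136, 186, 212 and 254 units against Cy3 signals of 411, 419, 373 and 385 units. Its log2 change was 0.16, 0.74 and 1.02 (2.03-fold at 12 hours), with each sample above the one before. IFI44, a cytoplasmic protein with antiproliferative activity, had 220, 296, 196 and 122 units and log2 changes of 0.30, 0.00 and -0.39. Its paralog IFI44L had 0.05, 0.04 and -0.23, and IFI27 -0.09, -0.13 and 0.05. IFI6 and IFI44 thus had opposite signs at 12 hours, and kept them under each of the alternatives tried, in which IFI6 spanned 0.83 to 1.23 and IFI44 -0.63 to -0.39.

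Across roles, 10 of the 37 genes measured on all arrays were higher at each step from 0 to 3, 6 and 12 hours, against 10.5% of all genes measured. They were HERC5, IFI6, IFIH1, IFIT1, ISG15, OASL, PARP9, SAMD9L, SP110 and UBE2L6. IRF7 was the 1 gene that was lower at each step, against 9.16%. This measure was chosen after the values were seen, and the untreated array enters every one of these genes. With median centring 5 remained (HERC5, IFI6, IFIH1, OASL and UBE2L6, against 2.61% of all genes), and with Cy5 alone 9 genes, of which 7 were among the 10. At 12 hours all 10 had a log2 change above 0 under each of the 6 other ways of processing for which the count was repeated, with medians of the 10 between 0.57 and 0.98 where the value here was 0.74. The 10 were selected as higher on these same arrays, so their signs at 12 hours are no independent check.

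**Figure D3:**
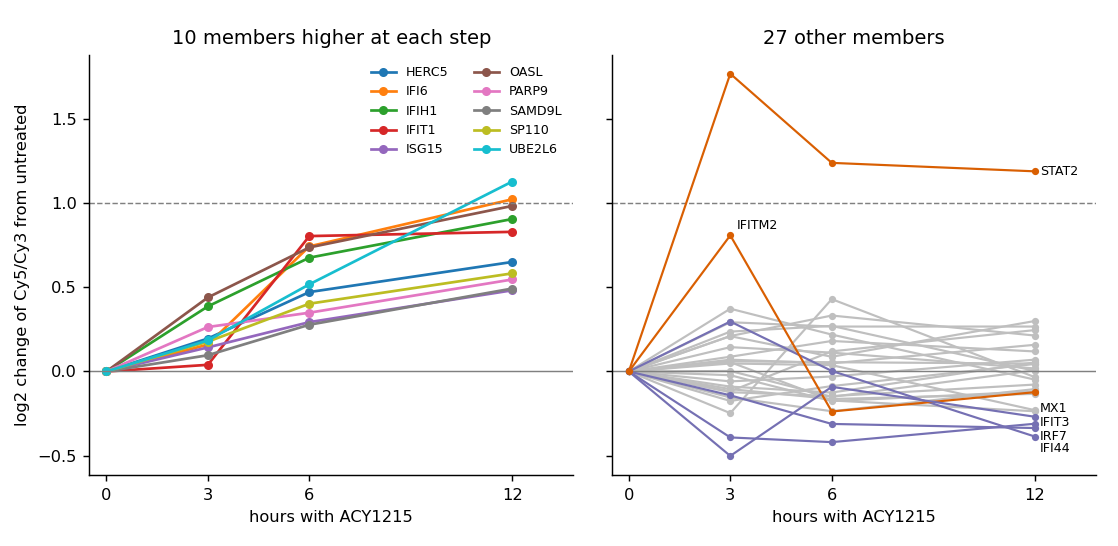
Log2 change of Cy5/Cy3 from untreated cells (vertical axis) against hours with ACY1215 (horizontal axis), 1 array per time point. Left, the 10 genes that were higher at each step; right, the other 27 measured on all arrays, with STAT2 and IFITM2, whose 3-hour spots were damaged, in orange, and IFI44, IFIT3, IRF7 and MX1 in purple. The dashed line marks 2-fold, which UBE2L6 (1.13), IFI6 (1.02) and STAT2 (1.19) exceeded at 12 hours.

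The genes that were higher at each step were set beside the others for the element that the complex of STAT2 and IRF9 binds. RefSeq promoter windows of 250 bases before the start of each gene (GRCh38.p14) were matched for 35 of the 43 genes by symbol, DDX58 under its current name RIGI, and 8 had no match (IFIT2, IFITM2, IRF7, MX2, OAS2, OASL, TRIM22 and USP18). The ISRE core was searched as GAAA, any 2 bases and GAAA, on both strands, and was present in 19 of the 35, against 3.07% of 27305 windows. The gamma-activated site (GAS) of type II interferon signalling, searched as TTC, any 3 bases and GAA, was present in 10 of the 35, against 6.78%, and overlapped an ISRE match in 3 genes. The search was added after the changes were known. A match is a description of letters and not a bound site.

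The windows below show, for 5 genes that were higher at each step and 5 genes with the lowest log2 changes at 12 hours among those holding the element, that the same core stood before genes of both kinds. Each runs 5′ to 3′ in the direction of the gene, with the match nearest the start in capitals (on the opposite strand it reads as its reverse complement).
HERC5, chr4:88457031-88457068, plus strand: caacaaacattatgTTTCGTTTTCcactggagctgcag
IFI6, chr1:27672262-27672299, minus strand: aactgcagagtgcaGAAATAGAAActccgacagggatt
IFIH1, chr2:162318685-162318719, minus strand: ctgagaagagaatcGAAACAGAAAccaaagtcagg
IFIT1, chr10:89392506-89392543, plus strand: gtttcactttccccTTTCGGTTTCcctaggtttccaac
ISG15, chr1:1013376-1013413, plus strand: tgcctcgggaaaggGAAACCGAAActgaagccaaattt
IFI44, chr1:78649757-78649788, plus strand: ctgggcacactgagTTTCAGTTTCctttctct
IFIT3, chr10:89327861-89327898, plus strand: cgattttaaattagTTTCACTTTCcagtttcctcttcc
IFI44L, chr1:78620361-78620398, plus strand: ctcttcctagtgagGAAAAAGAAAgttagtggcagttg
IFITM1, chr11:313986-314023, plus strand: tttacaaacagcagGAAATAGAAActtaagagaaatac
IFITM3, chr11:320872-320909, minus strand: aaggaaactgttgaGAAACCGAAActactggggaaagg

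The printed core of ISG15, with a log2 change of 0.48 at 12 hours, and that of IFITM3, with -0.10, were the same 10 letters, as were those of IFI6 (1.02) and IFITM1 (-0.12). The IFITM3 value lay within the SD between repeated spots (0.116), and the second IFITM1 probe gave 0.06, so neither gene is read as lower. Of the 9 genes higher at each step that had a window, 5 held the ISRE core and 0 the GAS core. Of the other genes measured on all arrays 12 of 21 held the ISRE core and 7 the GAS core. The median log2 change at 12 hours was 0.05 over the 17 measured genes with the ISRE core and 0.16 over the 13 without it, and the ranges overlapped (-0.39 to 1.02 and -0.27 to 1.19). STAT2 and UBE2L6, both 2-fold higher at 12 hours, held neither core in this window, which says only that these letters are not in it.

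The genes that act before the interferon-stimulated genes were taken from a list of ligands, receptors, kinases, inhibitors and sensors. Of 9 interferon genes on the array IFNL2, a type III interferon, was well above background in Cy5 on all 4 arrays, at 102, 106, 81.0 and 76.0 units, and its log2 change stayed between -0.07 and 0.05. IFNL1 was so at 3 and 12 hours only, at 5.0 and 6.0 units, and the other interferon genes on no array. All 6 receptor subunits were measured. IFNLR1, the ligand-binding subunit for type III interferons, had Cy5 signals of 375, 874, 889 and 577 units and log2 changes of 0.95, 1.27 and 0.99, with the 3 treated samples above the untreated one. Its partner IL10RB had 0.45, 0.74 and 0.63. For the subunits of the type I receptor the representing probes gave 0.31, 0.48 and 0.22 for IFNAR1 and 0.08, 0.21 and 0.30 for IFNAR2. With median centring these became -0.02 and -0.04 at 12 hours, where IFNLR1 had 0.79. A further IFNAR2 probe, at Cy5 signals of 415 to 468 units, gave 0.17, 0.28 and 0.61, and 0.36 with median centring at 12 hours, close to IL10RB (0.43). Another IFNAR2 probe, measured at each time point at Cy5 signals under 100 units, gave -0.08, -0.04 and 0.13. With median centring it gave 0.03 at 12 hours. The probes of IFNAR2 thus differed at 12 hours. The highest lay close to IL10RB (0.63), the others lay lower, and all lay below IFNLR1 (0.99). Which of these probes follows IFNAR2 best was not tested, so its place beside IL10RB is left undecided.

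JAK1, the kinase that all of these receptors use, had log2 changes of 0.30, 0.46 and 0.54, and TYK2, its partner at the type I and III receptors, had -0.24, -0.30 and -0.09. IRF3, which switches on the interferon beta gene after RNA or DNA sensing, had -0.16, -0.30 and -0.33. In the list of 11 sensing genes 10 were measured, with 4 higher and 4 lower beyond the SD between repeated spots at 12 hours, against 34.9% and 29.8% of all genes. The MYD88 spot of the untreated array had been set aside as an outlier. The largest change at 12 hours was that of CGAS, the DNA sensor, with Cy5 signals of 444, 284, 192 and 172 units and log2 changes of -0.42, -0.64 and -0.73. STING1, the adaptor that CGAS signals to, was named after its values were seen and had 714, 564, 356 and 295 units and log2 changes of -0.25, -0.45 and -0.63. Of the whole list of 61 genes, 60 were on the array, and of the 47, 48 and 48 measured at 3, 6 and 12 hours 0, 1 (IFNLR1) and 1 (GBP2) were 2-fold higher (1.69%, 2.81% and 2.34% of all genes) and none was 2-fold lower (0.366%, 0.939% and 1.12%), shares that leave these counts near those of all genes.

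**Figure D4:**
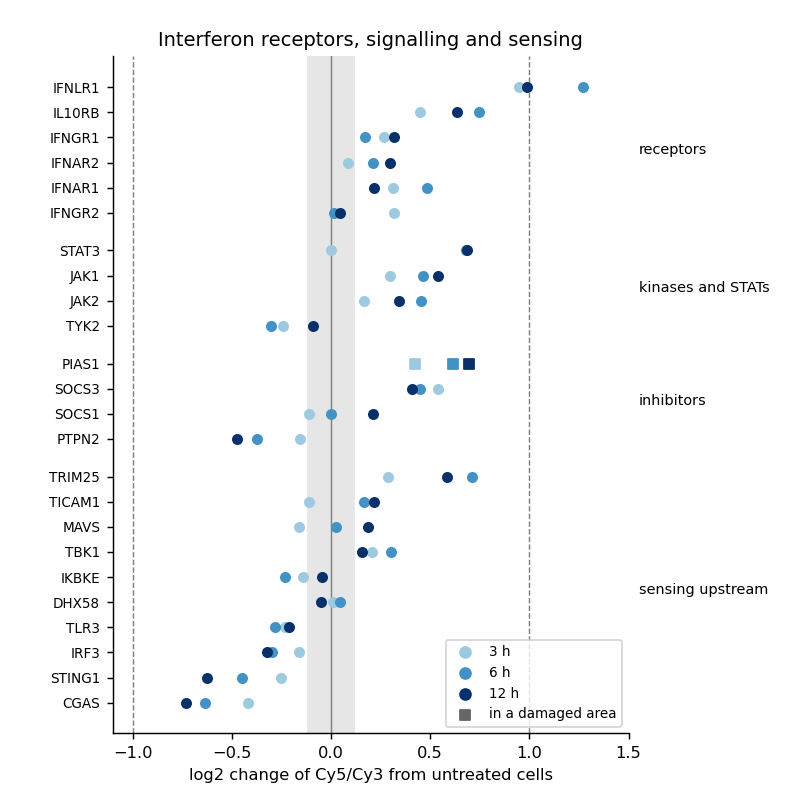
Log2 change of Cy5/Cy3 from untreated cells (horizontal axis) at 3, 6 and 12 hours for measured interferon receptors, kinases, STAT3, inhibitors and sensing genes. The grey band spans 1 SD between repeated spots at 12 hours (0.116) on either side of 0, dashed lines mark 2-fold, and squares rest on a spot in a damaged area. IFNLR1 passes 2-fold at 6 hours (1.27), and CGAS and STING1 lie at -0.73 and -0.63 at 12 hours.

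A second probe bears on some of these values. At 12 hours 8 further probes were measured for 7 of the genes, and 5 of the 8 had the sign of the representing probe. Those of the other sign belonged to IFITM1 and OAS2. The largest difference was that of PARP9 (0.55 and 0.14), and the median size of the difference was 0.11. For BST2 the second probe gave 0.37 beside 0.27, and for DDX58 0.27 beside 0.12. The 3 genes that were 2-fold higher at 12 hours, IFI6, STAT2 and UBE2L6, each had a single probe.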

How the data were processed

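For each array the authors deposited Agilent Feature Extraction output, with the intensity and local background of each spot in both channels, log10 ratios of Cy5 over Cy3 (not used) and flags (scored 0 or 1) for outlier spots and signals well above background. Normalized log2 ratios, in a table that the authors deposited too, were used for gene symbols and as an alternative and their normalization is not given in the sources used here.

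From the median signals of 62976 spots, the background was removed (normexp, offset 50) and then 2075 control spots, outlier spots set aside, and arrays normalized by loess and Aquantile (limma 3.58.1, R 4.3.3). The offset shrinks changes of dim spots. Spots of a probe were averaged. Damaged areas were those where 10% or more of the spots in a window (13 rows, 7 columns) were flagged or deviated over 2-fold in Cy3. With 1 array per time point no test was made. The procedure was tested on simulated data.

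Members and lists were chosen with earlier results of these data known. Genes given on every array were those 2-fold changed, those with a bound of 2-fold or more, and the 2 largest changes at 12 hours in each role. IFNAR1, IFNAR2, JAK1, TYK2 and IRF3 were named beside them, with the largest change at 12 hours of a list. A gene that this rule also names is not reported here. Other names, the steps, the counts against the reference and the promoter search were chosen after values were seen. The array was designed on hg19, so only the promoter windows carry coordinates (RefSeq, GRCh38.p14).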

Additional observations from a re-analysis of the deposited data

How the results depend on the processing

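Of 511 values of the 20 genes given on every array under the alternatives, 375 moved by less than the SD between repeated spots. Of the others, 14 changed sign, 6 with median centring (BST2, DDX58, ISG20 and OAS3 at 12 hours and ISG20 and IFI44 at 6 hours) and 5 with Cy5 alone, of which 1 had been 2-fold changed: STAT2 at 3 hours, at -0.27. IFITM2 at 3 hours gave -1.23 with Cy5 alone. Genes 2-fold higher at 6 hours numbered 3 (IFIT1, STAT2 and XAF1) with a normexp offset of 1 and with the software's processed signals, and 2 (IFIT1 and STAT2) with no background subtraction and in the authors' table. At 12 hours they numbered 6 with an offset of 1, and 5 with no background subtraction, processed signals or the authors' table. The share of all genes 2-fold higher at 12 hours also went up, to 4.48% with an offset of 1, 3.45% with no background subtraction, 5.04% with processed signals and 3.67% in the authors' table. Genes 2-fold lower numbered 1 at 6 hours (IFIT3) with an offset of 1 and with processed signals, and 1 at 12 hours (HERC6) with processed signals. With Cy5 alone 0 were higher and 1 lower (IFITM2) at 3 hours. With median centring 0 were 2-fold higher at 12 hours, the median log2 change was -0.011 at 6 hours and -0.098 at 12 hours, and 5 genes were higher at each step. All genes then split into 263 higher and 704 lower at 12 hours, where loess gave 479 and 229. Outside damaged areas 0 were 2-fold higher at 3 and at 6 hours, because STAT2 is left out for its 3-hour spot. At 1.5-fold 2, 5 and 7 genes were higher, and at 4-fold 0, 0 and 0. The causes of the other differences were not tested. Leaving the 3-hour array out of the normalization, an alternative added after the data were seen, gave the same values at 6 and 12 hours (a median of 0.12 and 0.05), because loess works within an array, and these values are among the 375. The repeats of the step count were also added then. The mean of the probes of a gene and other definitions of detection moved no count by over 1.5 times.

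No paired analysis was possible because each group holds 1 array. Of the 39 genes seen in untreated cells 18 had Cy5 signals under 100 units, where changes are least precise.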

Other observations

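A further 25 interferon-induced genes outside the list, of which 22 were measured at 12 hours, had a median log2 change of -0.03. Beyond the SD between repeated spots 10 were higher and 8 lower, against 34.9% and 29.8% of all genes. GBP2, an interferon-inducible GTPase, had the largest change, with Cy5 signals of 17.5, 29.0, 42.0 and 76.0 units at 0, 3, 6 and 12 hours and log2 changes of 0.09, 0.53 and 1.16. PLSCR1, PARP10 and NMI were named after their values were seen. NMI, from 10 spots, had Cy5 signals of 1900, 2040, 1080 and 637 units and log2 changes of -0.01, -0.31 and -0.98. Part of its spots lay in damaged areas in untreated cells and at 3 hours. At 12 hours NMI gave -1.03 with a normexp offset of 1 and -1.35 with median centring. PLSCR1, a scramblase with antiviral activity, had log2 changes of 0.67, 0.82 and 0.60, and PARP10, a mono-ADP-ribosyltransferase, -0.58, -0.70 and -0.73. A second PARP10 probe, measured at each time point at Cy5 signals under 100 units, gave 0.07, 0.02 and -0.05. The lower values of PARP10 thus rest on its representing probe alone. LAMP3, a lysosomal membrane protein also named then, had Cy5 signals of -1.0, 186, 272 and 314 units. Its untreated spot was not well above background and lay in a damaged area, so it has only bounds that rest on that spot, of at least 3.92-fold, 6.0-fold and 7.09-fold higher.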
